A study of Mus musculus with 39 samples.

Results

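The comparison of isoniazid at 2500 ppm with control diet after 14 days used 10 of the 39 arrays of the series, 5 from treated mice and 5 from controls, each measuring the lung of 1 mouse. The members are all arrays whose titles give isoniazid or control with 14 days. The animals were female Crlj:CD1(ICR) mice, an outbred strain, aged 12 weeks at 14 days. All were fed a powdered diet, and the treated animals had isoniazid, an antituberculosis drug, in it at 2500 ppm. The labels call isoniazid a positive control for tumour induction in a study of the insecticide permethrin. Its other groups used here are the isoniazid and control animals of 7 days (5 and 5, aged 11 weeks, other individuals), and permethrin at 5000 ppm (5) and 10000 ppm (4) for 14 days. Age and duration rise together, so they cannot be told apart across times.

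Isoniazid is acetylated by N-acetyltransferases and binds pyridoxal phosphate, the active form of vitamin B6. The aryl hydrocarbon receptor is a ligand-activated transcription factor that binds a short DNA core with its partner ARNT and switches on Cyp1a1, a P450 that oxidises aromatic compounds in lung epithelium and endothelium. Haem synthesis supplies the prosthetic group of all P450s. Its first step is catalysed by Alas1, which uses pyridoxal phosphate as cofactor and whose gene is repressed by haem.

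Values are MAS5 signals on the log2 scale after quantile normalization, so a difference of 1 is a doubling, and 13021 genes were tested. MAS5 is the array maker's algorithm that turns the probes of a gene into 1 signal. In whole lung, fewer cells of a type and less RNA per cell cannot be told apart. P-values measure the spread between animals, and 5 arrays a group limit the precision. The lung markers Sftpc, a surfactant protein of alveolar type 2 cells, Scgb1a1, the secretoglobin of club cells, and Ager, a receptor of alveolar type 1 cells, lay near the top of the scale on all 10 arrays, with control means of 12.72, 13.13 and 12.86. The log2 signal of the 3' probe set of Gapdh minus that of its 5' probe set, a measure of RNA breakdown, ran from -0.01 to 1.80 in controls and from -0.16 to 1.88 with isoniazid. This Gapdh ratio was above 0.7 in 2 arrays of each group, control replicates 4 and 5 and isoniazid replicates 3 and 5. The same ratio for Actb was above 0.7 in 2 of 5 control arrays and in 4 of 5 isoniazid arrays, with means of 0.87 and 1.16 and highest values of 1.65 and 2.37, and its part in the results was not tested. Correlations between the 10 arrays ran from 0.917 to 0.977, and no pair was identical.

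After 14 days of isoniazid, 4 of 13021 genes (0.0307% of all tested) passed an adjusted p of 0.05, 2 higher and 2 lower (0.0154% each), and 6.02% had an unadjusted p under 0.05. The P450 gene Cyp1a1 and the haem synthesis gene Alas1 rose. The integrin gene Itgae and the carboxylesterase gene Ces1f fell. Without the 4 arrays of high Gapdh ratio (and the 3 permethrin arrays above the same limit), 2 genes passed, Cyp1a1 and Ces1f. With only the 10 compared arrays in the model, 1 passed, Cyp1a1.

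The promoter windows of both risen genes are shown because the aryl hydrocarbon receptor core is a sequence feature that can be read in them. They are 300 bases each, from 250 before to 50 after a RefSeq start site in GRCm38.p6, written along the gene's strand, with the core GCGTG in capitals. The Cyp1a1 window is chr9:57697363-57697662 on the plus strand, and the Alas1 window is chr9:106247681-106247980 on the minus strand.
Cyp1a1: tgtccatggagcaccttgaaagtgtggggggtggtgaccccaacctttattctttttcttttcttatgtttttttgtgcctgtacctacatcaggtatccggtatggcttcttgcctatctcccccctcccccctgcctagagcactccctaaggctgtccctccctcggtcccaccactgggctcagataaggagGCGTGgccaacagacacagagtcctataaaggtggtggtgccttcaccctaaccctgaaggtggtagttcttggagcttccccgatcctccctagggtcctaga
Alas1: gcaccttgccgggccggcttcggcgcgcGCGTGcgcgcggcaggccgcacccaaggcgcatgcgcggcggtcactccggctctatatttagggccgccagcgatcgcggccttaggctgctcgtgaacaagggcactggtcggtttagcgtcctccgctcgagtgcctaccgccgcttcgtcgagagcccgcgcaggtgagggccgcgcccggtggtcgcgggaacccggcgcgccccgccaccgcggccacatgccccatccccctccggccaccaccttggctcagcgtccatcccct
The core was searched on both strands. Each window held it 1 time, with its first base at -54 from the start site in Cyp1a1 and at -222 in Alas1. A second RefSeq start of Alas1 lies further upstream, and its window (chr9:106247905-106248204) overlaps the one shown and holds the same match, at 2. Of 32851 promoter windows of this length, 32.4% held the core, so a match describes the letters and no more.

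Cyp1a1 was the gene of smallest p among all tested. In control replicates 1 to 5 its log2 signals were 5.43, 5.79, 4.98, 4.85 and 5.17, and in isoniazid replicates 1 to 5 they were 8.41, 8.96, 7.89, 8.33 and 8.0. Every treated animal lay above every control, and the lowest treated value was 7.89 against a highest control of 5.79. In deposited units the signal was 30.6 to 56.1 in controls and 234 to 483 with isoniazid. The log2 fold change was 3.07 (SE 0.37, adjusted p = 9.05e-06), an 8.41-fold rise. It passed the threshold under each of the 22 alternatives tried, with log2 fold changes between 2.91 and 3.21.

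The other targets of the aryl hydrocarbon receptor had smaller differences, none past the threshold. The list of 11 known targets had 6 tested genes, and 1 passed, Cyp1a1. All 6 had log2 fold changes above 0, where 50.5% of all genes did, and their median was 0.33 against 0.002 for all genes. Cyp1a1, already called, is part of both that count and that median. The list's median was 0.20 without the arrays of high Gapdh ratio, 0.18 without isoniazid replicate 5 and 0.14 with no filter on dim genes. Cyp1b1, a related P450 with a broad tissue range, had controls of 5.55, 5.29, 5.17, 5.68 and 5.25 and isoniazid values of 5.75, 5.90, 5.78, 5.28 and 6.39. The groups overlapped through isoniazid replicate 4, and the log2 fold change was 0.43 (SE 0.17, adjusted p = 0.768). The aldehyde dehydrogenase gene Aldh3a1 differed by 0.59 (adjusted p = 0.824), and the quinone reductase Nqo1 by 0.22 (adjusted p = 0.95). The receptor's feedback gene Tiparp differed by 0.06.

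Alas1 held log2 signals of 10.15, 10.37, 10.36, 10.23 and 10 in the controls and of 10.47, 11.20, 10.94, 10.89 and 10.99 with isoniazid. The groups did not overlap, and isoniazid replicate 1 lay closest to the controls. The log2 fold change was 0.68 (SE 0.13, adjusted p = 0.0351), a 1.60-fold rise. A second, dimmer probe set of Alas1 gave 0.35 (SE 0.24). The call was lost in 13 of 22 alternatives, among them array medians as scaling (adjusted p = 0.332) and array weights (0.405). It was lost without control replicate 1, 4 or 5 or without isoniazid replicate 2, 3, 4 or 5 (adjusted p between 0.0695 and 0.187), and without the arrays of high Gapdh ratio (log2 0.56, adjusted p = 0.859). With the mean liver and cardiac signal of each array in the model it was 0.67 (adjusted p = 0.302).

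Of the 11 tested haem synthesis genes, Alas1 was the only member past the threshold, and the list's median log2 fold change was 0.02, with a sign that turned under other scalings. Cpox, which oxidises coproporphyrinogen, had 0.34 (SE 0.19, adjusted p = 0.907), with every treated animal above the control mean. Urod, the uroporphyrinogen decarboxylase, had 0.21 (adjusted p = 0.913). None of the 16 tested genes of haem breakdown and iron handling passed. Their median was 0.05. The haem oxygenase gene Hmox1, which degrades haem, had -0.06 (SE 0.16, adjusted p = 0.991), and its sign turned in 1 of the alternatives. Tfrc, the transferrin receptor that takes up iron, was at 8.56, 8.63, 8.20, 8.73 and 7.97 in controls and at 8.89, 8.88, 8.98, 8.90 and 9.12 with isoniazid. These groups did not overlap, which was true of 77 genes (0.591% of all tested), but the adjusted p was 0.398 (log2 fold change 0.54, SE 0.16).

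Itgae encodes the alpha E integrin chain, CD103, which binds E-cadherin and marks T cells and dendritic cells lodged in epithelia. Controls had log2 signals of 6.39, 5.44, 6.37, 6.71 and 6.51 and isoniazid animals 5.26, 5.29, 3.99, 4.91 and 4.89. The groups did not overlap, although control replicate 2 lay only just above the highest treated animal. The log2 fold change was -1.42 (SE 0.25, adjusted p = 0.0094), a 2.67-fold fall. A second probe set of Itgae gave -1.11 (SE 0.26). The call was lost without control replicate 4 (adjusted p = 0.0866) or isoniazid replicate 3 (0.0788), and with array weights (0.161). Without the arrays of high Gapdh ratio the log2 fold change was -0.91 (adjusted p = 0.858).

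Markers of T and NK cells were read beside this fall. Of 24 tested genes of that list, 18 had negative log2 fold changes, none passed, and the median was -0.13 (0.10 without the arrays of high Gapdh ratio and 0.02 without control replicate 4). At an unadjusted p under 0.05 no member was lower and 1 was higher, the cytokine receptor gene Il7r (log2 0.36, SE 0.16, adjusted p = 0.811). A second, dimmer probe set of Il7r gave 0.03. The summed signal of the list ran from 1715 to 2940 in controls and from 1737 to 2422 with isoniazid, and none of its signals was at 0. At 7 days 21 of the list's tested genes were positive and 3 negative, with a median of 0.145, while Itgae had -0.85. The list's part in the Itgae result was not tested.

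Ces1f encodes a carboxylesterase, an enzyme class that hydrolyses esters and lipids. Its controls were at 6.63, 6.14, 6.84, 7.56 and 6.21 and its isoniazid animals at 5.42, 4.97, 4.59, 5.28 and 6.32. The groups overlapped, since isoniazid replicate 5 lay above the lowest 2 controls, while the other treated animals lay below all of them. The log2 fold change was -1.36 (SE 0.24, adjusted p = 0.0094), a 2.56-fold fall. The call was lost without control replicate 4 (adjusted p = 0.0906), isoniazid replicate 2 (0.0559) or isoniazid replicate 3 (0.0823). Ces1 genes are related in sequence, so the probe set may read more than 1 of them. Its paralogue Ces1g, measured by another probe set, had -0.83 on the same scale (SE 0.28, adjusted p = 0.636), with isoniazid replicate 5 again the highest treated animal.

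**Figure D1:**
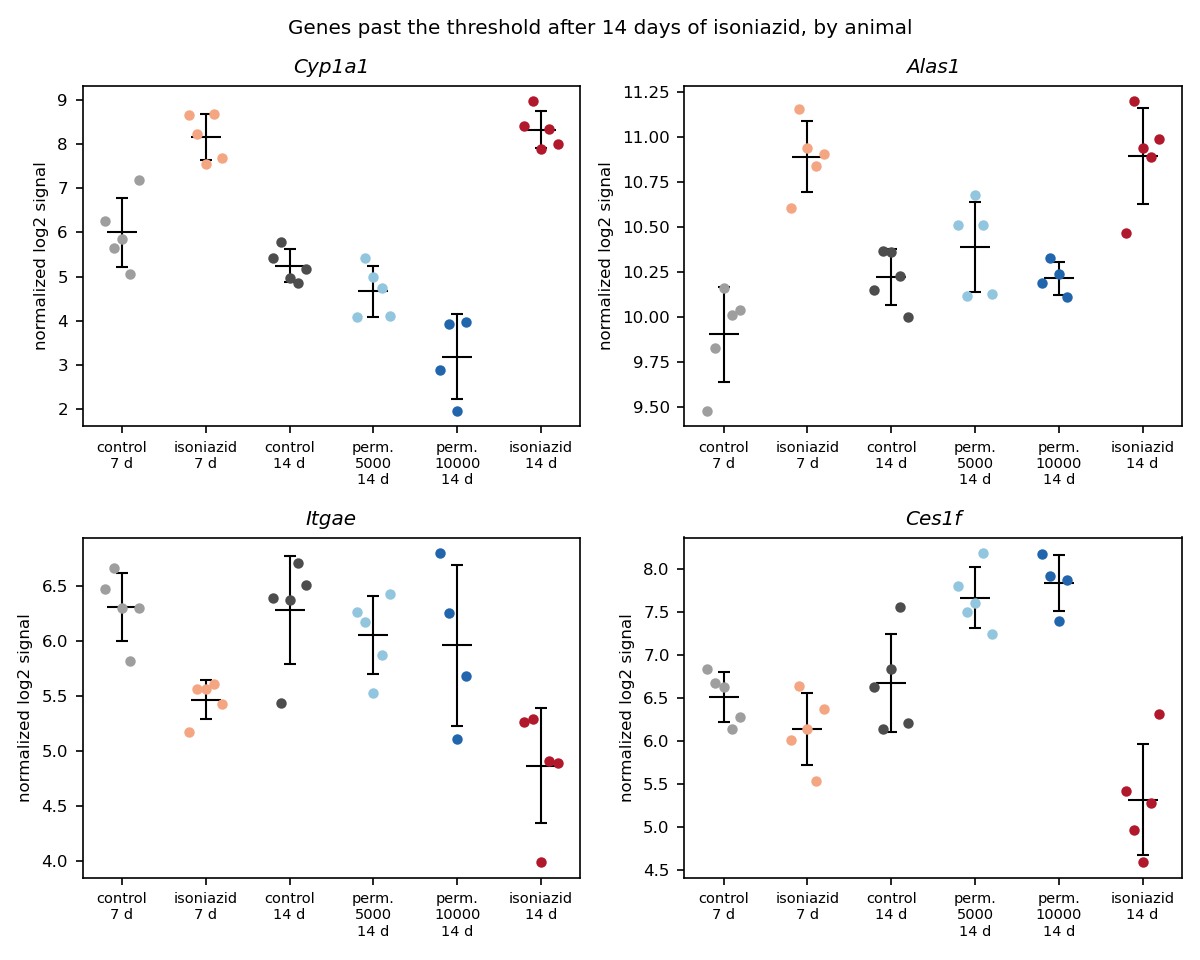
Normalized log2 signal (vertical axis) of Cyp1a1, Alas1, Itgae and Ces1f in control and isoniazid animals at 7 and 14 days and in permethrin animals (perm., diet ppm below) at 14 days. Each point is 1 animal, the horizontal line is the mean and the bar the SD. Cyp1a1 lies between 7.89 and 8.96 with isoniazid at 14 days and between 4.85 and 5.79 in the controls of that time.

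Most liver genes had lower values in the isoniazid lungs, beside the Ces1f result. The liver list holds proteins made mostly by hepatocytes, and 21 of 26 tested genes had negative log2 fold changes. None passed the threshold, 11 were lower at an unadjusted p under 0.05 (2.52% of all genes were), and the median was -0.75, or -0.30 over the brighter genes of the upper 40%. The array-wide mean over the list was 5.47, 4.36, 5.26, 5.34 and 5.52 in controls and 4.41, 4.35, 4.05, 3.55 and 4.59 with isoniazid. The groups overlapped only through control replicate 2. Its summed signal ran from 1849 to 2828 in controls and from 1361 to 2485 with isoniazid, and none of its signals was at 0. With the liver and cardiac means of each array in the model, the log2 fold change of Ces1f was -1.57 (adjusted p = 0.018) and that of Itgae -1.55 (adjusted p = 0.018).

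Among liver genes the serine protease inhibitor Serpina1c came closest to the threshold. Its controls were at 6.44, 5.98, 7.23, 7.68 and 7.95 and its isoniazid animals at 4.21, 3.87, 0.74, 2.18 and 4.49. Groups did not overlap, but the treated animals spread from 0.74 to 4.49, and the log2 fold change of -3.96 had an SE of 0.83 (adjusted p = 0.0752). Isoniazid replicates 3 and 4 lay under the filter limit on mean signal of 3.43, where signals are dim, so the size of this difference is not exact. Alb, the gene of serum albumin, had -2.0 (SE 0.67, adjusted p = 0.631) with no overlap between groups. Apoh, a plasma glycoprotein, had -1.20 (adjusted p = 0.602).

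**Figure D2:**
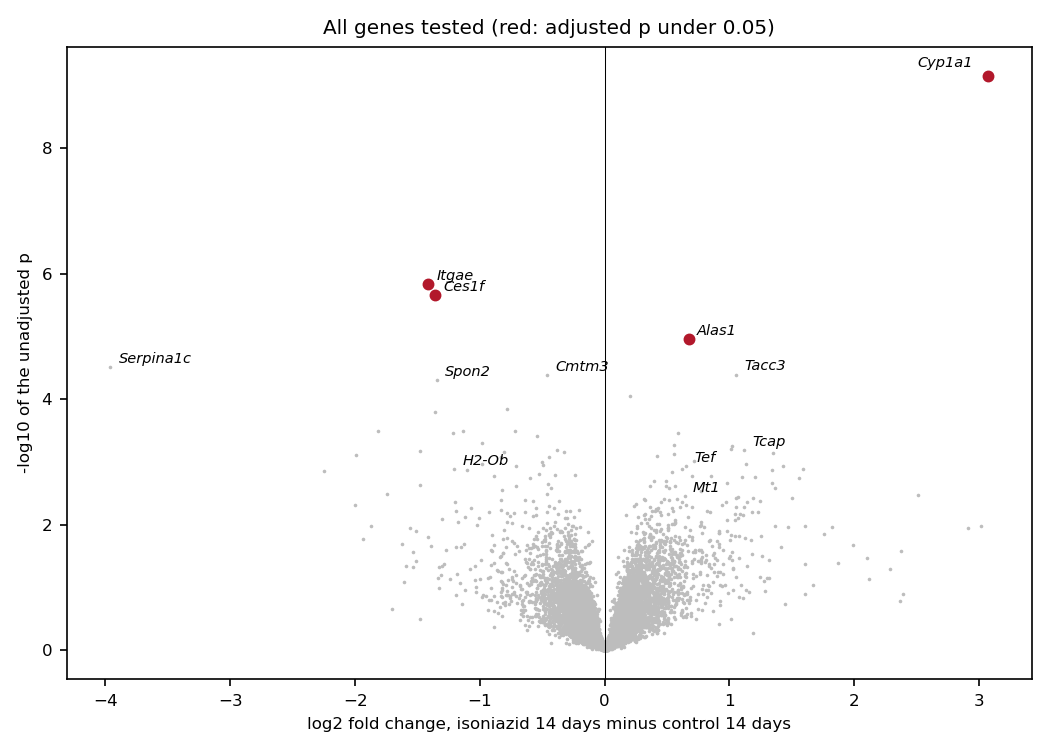
Log2 fold change of isoniazid against control at 14 days (horizontal axis) against the negative log10 of the unadjusted p (vertical axis), 1 point per gene for 13021 genes. The 4 genes past an adjusted p of 0.05 are in red, with Cyp1a1 at 3.07 far above the others, and 8 genes that did not pass are labelled.

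Beyond these 4 genes, the 15 of next smallest p did not pass, and their adjusted p ran from 0.0752 to 0.34. Of them, 4 had positive and 11 negative log2 fold changes. Cmtm3, a membrane protein of the chemokine-like family, was at 8.17, 8.28, 8.30, 8.21 and 8.22 in controls and at 7.66, 7.73, 7.87, 7.91 and 7.72 with isoniazid. That difference was small but without overlap (log2 -0.46, SE 0.10, adjusted p = 0.0752). Permethrin at 5000 and 10000 ppm for 14 days, set against the same controls, gave log2 fold changes of -0.37 and -0.36 for Cmtm3. Spon2, the secreted matrix protein mindin, had controls of 7.18, 7.04, 7.35, 6.52 and 6.85 and isoniazid values of 5.93, 6.11, 5.02, 6.21 and 4.95. It did not overlap either (log2 -1.35, SE 0.29, adjusted p = 0.0799). Tacc3, a protein of the mitotic spindle, was higher in all 5 treated animals (log2 1.05, SE 0.23, adjusted p = 0.0752), but its 2 other probe sets gave -0.19 and -0.35.

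Other genes of that set encode enzymes and immune or airway proteins. Lrat, which esterifies retinol, had -1.22 (SE 0.31, adjusted p = 0.284) and Has1, a hyaluronan synthase, -1.81 (SE 0.46, adjusted p = 0.284). Has1 overlapped, since isoniazid replicate 2 was the highest of all 10 animals at 5.43, and it had -0.94 without the arrays of high Gapdh ratio. Hk2, a hexokinase, had 0.59 and the lipid-binding protein Sec14l2 0.56, both with no overlap. Stk10, a kinase of lymphocytes, had -0.72, Btla, an inhibitory receptor of B and T cells, -0.99, and the ubiquitin ligase Dtx4 -0.55. Inpp4a, a phosphoinositide phosphatase, had -0.79, the adhesion protein Hepacam2 -1.36 and Zmynd15 -1.14. For Hepacam2, isoniazid replicates 3 and 5 lay under the filter limit at 1.80 and 3.13, so that size is not exact either. Against the same controls, permethrin at 5000 and 10000 ppm gave 0.34 and 0.58 for Hk2 and -0.265 and -0.52 for Inpp4a. For Lrat it gave -0.29 and -0.73, for Dtx4 0.004 and 0.07 and for Btla -0.185 and 0.06. Scgb3a2, an airway secretoglobin, had 0.20 near the top of the scale, where quantile normalization compresses differences, and 0.62 under the deposited scaling.

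Clock genes had one-sided differences without a single call. The circadian clock consists of activators (Arntl, Clock, Npas2) and of repressors and outputs that the activators drive in a daily cycle. All 11 tested genes of the list of repressors and outputs had positive log2 fold changes with a median of 0.65, or 0.35 without the arrays of high Gapdh ratio, and 7 were higher at an unadjusted p under 0.05, as were 3.5% of all genes. None passed after adjustment. Of the activators, Arntl had -0.83, Npas2 -0.89 and Clock -0.15. The repressors Cry1 and Nfil3, which were listed with the activators and not with the 11 genes, had 0.23 and -0.11. The sources used here do not give the time of day at which lungs were taken, and its part in these values was not tested.

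Tef, a PAR-domain output factor, was at 7.92, 8.29, 8.19, 8.76 and 8.53 in controls and at 8.62, 8.57, 9.15, 9.09 and 9.51 with isoniazid. All treated animals exceeded the control mean, but the groups overlapped (log2 0.65, SE 0.18, adjusted p = 0.382). Usp2, a rhythmic deubiquitinase, was at 6.11 to 6.38 in controls and at 6.67, 6.58, 6.46, 6.53 and 7.78 with isoniazid (log2 0.56, SE 0.17, adjusted p = 0.474). Per3, a period repressor, was at 4.77, 5.40, 5.79, 6.23 and 5.30 in controls and at 5.75, 5.88, 6.47, 6.37 and 7.73 with isoniazid (log2 0.94, SE 0.31, adjusted p = 0.631). Isoniazid replicate 5 was the highest treated animal for these 3 genes. Without it the log2 fold change was 0.32 for Usp2 and 0.62 for Per3.

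In that animal Arntl was at its lowest. Arntl was at 7.23, 6.95, 7.36, 6.81 and 6.66 in controls and at 6.81, 6.94, 5.88, 6.43 and 4.80 with isoniazid (log2 -0.83, SE 0.27, adjusted p = 0.602), and without isoniazid replicate 5 the difference was -0.49. Npas2 had an SE of 0.37 (adjusted p = 0.768), with its lowest treated values in isoniazid replicates 3 and 5 at 4.26 and 4.28. Cry1 was highest in replicate 5, at 7.04. The mean log2 signal of the repressor and output list was 5.90, 6.27, 6.16, 6.44 and 6.18 in controls and 6.55, 6.38, 6.94, 6.81 and 7.45 with isoniazid, with overlap only between control replicate 4 and isoniazid replicate 2.

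Hormone-dependent targets of the glucocorticoid receptor, which share Per1 with the clock list, had positive log2 fold changes in 14 of 16 tested genes, a median of 0.42 and no call. At an unadjusted p under 0.05, 6 of the 16 were higher, as were 3.5% of all genes. Without the arrays of high Gapdh ratio the median was 0.11, and the log2 fold changes were 0.05 for Fkbp5 and 0.27 for Tsc22d3. Fkbp5, a co-chaperone of that receptor, was at 7.17, 8.02, 6.55, 5.74 and 6.76 in controls and at 7.01, 7.39, 8.13, 7.49 and 8.01 with isoniazid. The groups overlapped widely (log2 0.76, SE 0.33, adjusted p = 0.768). Tsc22d3, the glucocorticoid-induced leucine zipper, had 0.62 (SE 0.26, adjusted p = 0.768), with controls spread from 9.39 to 11.23. The metallothionein Mt1, which binds zinc, had 0.64 (SE 0.21, adjusted p = 0.59, or 0.41 without the arrays of high Gapdh ratio) and Mt2 0.37 (SE 0.29, adjusted p = 0.935). The list of 11 tested metallothionein and zinc transporter genes had a median of 0.07 and no call. At 7 days all 16 glucocorticoid targets were positive, with a median of 0.61. Of them, 8 were higher at an unadjusted p under 0.05 (3.82% of all genes were). Fkbp5 had 1.31 at 7 days (SE 0.33, adjusted p = 0.137).

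Genes of MHC class II, which present peptides on B cells, dendritic cells and macrophages, lay mostly lower with isoniazid. All 10 tested genes had negative log2 fold changes with a median of -0.57, none passed, and 3 were lower at an unadjusted p under 0.05 (2.52% of all genes were). H2-Ob, a modulator of peptide loading in B cells, was at 5.70, 6.09, 6.49, 7.90 and 7.01 in controls and at 5.76, 4.47, 5.47, 5.75 and 5.70 with isoniazid (log2 -1.21, SE 0.35, adjusted p = 0.386, or log2 -0.76 without the arrays of high Gapdh ratio). Control replicate 4 held the highest value, and control replicate 1 lay among the treated animals. H2-Ab1, a class II beta chain, had -0.57 (adjusted p = 0.768) and Ciita, the transactivator of these genes, -0.61 (adjusted p = 0.731). Outbred mice can carry different class II alleles, which the probes may read unequally. That was not tested.

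B cell markers also lay mostly lower. Of 17 tested B and plasma cell genes 13 had negative log2 fold changes, none passed, and the median was -0.28, or 0.16 without the arrays of high Gapdh ratio. The summed signal of the list ran from 4850 to 8689 in controls and from 5297 to 6271 with isoniazid, and none of its signals was at 0. Ms4a1, which encodes CD20, was at 7.26, 7.17, 7.44, 9.44 and 8.02 in controls and at 7.18, 6.67, 7.25, 7.37 and 6.76 with isoniazid (log2 -0.82, SE 0.46, adjusted p = 0.899, or log2 -0.21 without the arrays of high Gapdh ratio). Control replicates 4 and 5, the controls of high Gapdh ratio, were the highest there. Cd22, an inhibitory B cell lectin, had -0.44 and Fcrla, an Fc receptor-like protein of B cells, -0.67, and without the arrays of high Gapdh ratio both were near 0 and positive. At 7 days 16 of the 17 B and plasma cell genes were negative, with a median of -0.64. Of them, 6 were lower at an unadjusted p under 0.05 (2.7% of all genes were). Ms4a1 had -1.28 at 7 days (SE 0.46, adjusted p = 0.58). The highest Gapdh ratio at 7 days was 0.66 in controls and 0.40 with isoniazid. The part of B cells in the class II values was not tested.

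**Figure D3:**
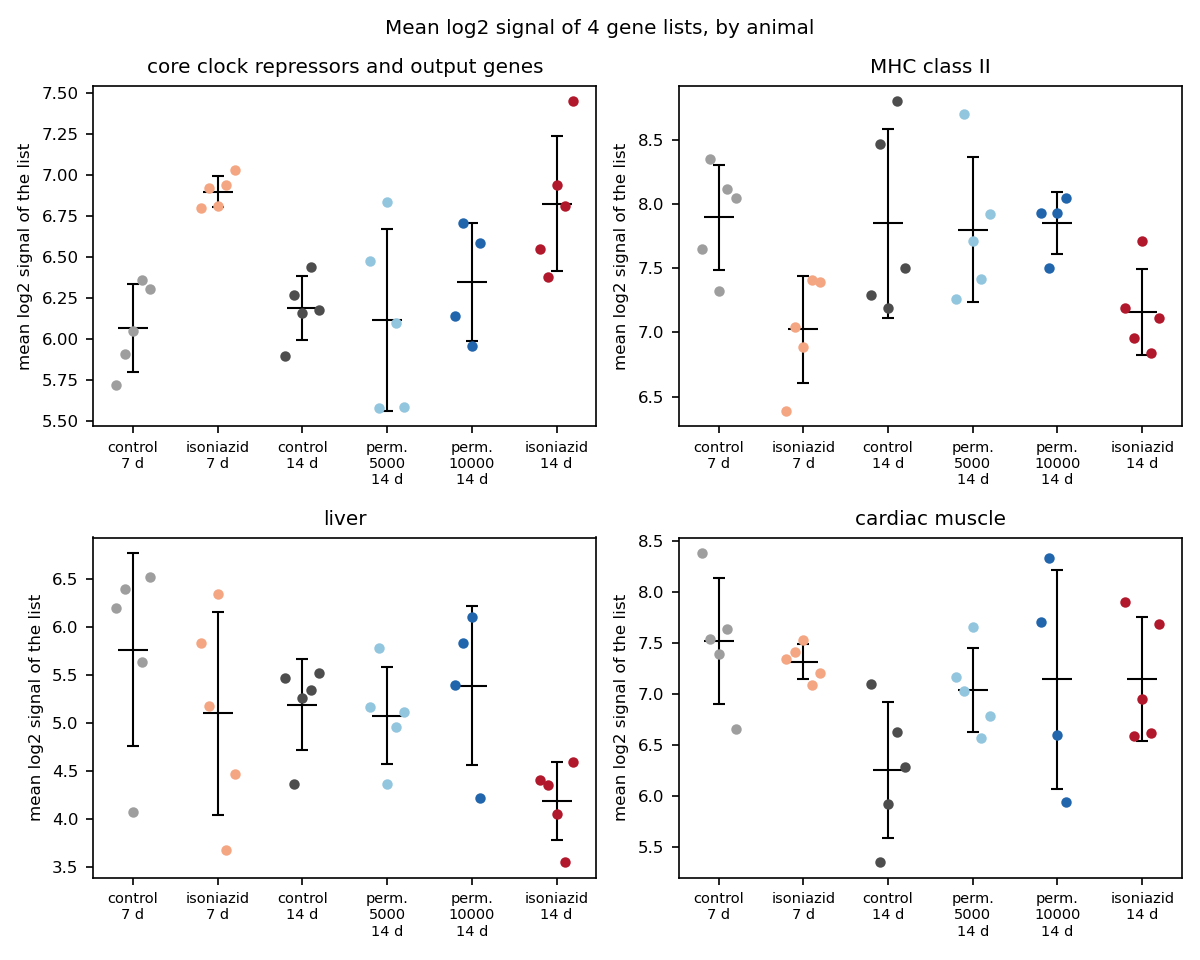
Mean log2 signal of 4 gene lists (vertical axis) in each animal, for control and isoniazid groups at both times and the permethrin (perm.) groups at 14 days. Points are animals, lines means and bars SD. The clock repressor and output list lies at 6.38 to 7.45 with isoniazid at 14 days and at 5.90 to 6.44 in controls, and the cardiac list is lowest in control replicate 2 at 5.35.

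Most muscle and fat genes had higher values in the isoniazid lungs. In the cardiac muscle list, whose genes are expressed in heart and in the muscle sheath of mouse pulmonary veins, 32 of 33 tested genes had positive log2 fold changes. The median was 1.01, 26 were higher at an unadjusted p under 0.05 (3.5% of all genes were) and none passed after adjustment. The mean over the list was 7.10, 5.35, 5.92, 6.63 and 6.28 in controls and 7.90, 6.59, 6.95, 6.62 and 7.68 with isoniazid, with overlap, and none of its signals was at 0. Its summed signal ran from 3247 to 10657 in controls and from 8125 to 22471 with isoniazid. Tcap, a protein of the sarcomere's Z disc, had 1.12 (SE 0.30, adjusted p = 0.34), the myosin light chain Myl3 1.13 (SE 0.32, adjusted p = 0.382) and the small heat shock protein Hspb7 1.43 (SE 0.40, adjusted p = 0.382).

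The 14-day controls were the low group for this list. At 7 days the cardiac list ran from 8539 to 27025 in controls and from 10840 to 13285 with isoniazid, and its median log2 fold change was -0.26. Permethrin at 5000 and 10000 ppm for 14 days, set against those same controls of 14 days, gave medians of 0.89 and 0.87. The fat list had 18 of 20 positive and a median of 0.61, and all 15 smooth muscle genes were positive with a median of 0.31. Permethrin at 5000 and 10000 ppm, against the same controls, gave 0.54 and 0.725 for fat and 0.38 and 0.40 for smooth muscle. For both lists the 14-day controls were the lowest of the groups used here, with mean log2 signals of 5.56 and 7.60. With isoniazid the smooth muscle median was 0.10 without the arrays of high Gapdh ratio, and the fat median 0.40 without isoniazid replicate 5. With the liver and cardiac means in the model the fat median was -0.10 and the smooth muscle median -0.03. Those means share some genes with the fat and smooth muscle lists, so part of this drop is built in. The part of these tissues in other values was not tested, beyond the model with the liver and cardiac means.

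Lists of the lung's own cells held no call. Median log2 fold changes were 0.14 for 25 club cell genes, 0.21 for 35 ciliated cell genes, -0.02 for 23 alveolar type 2 genes, -0.001 for 17 alveolar type 1 genes and -0.02 for 24 endothelial genes, and the last 3 turned positive under the deposited scaling. That scaling put the club cell median at 0.39, and with the liver and cardiac means in the model the ciliated cell median was -0.02. Scgb3a1, an airway secretoglobin in the club cell list, was either between 5.64 and 6.54 or above 11 in each of the 10 animals. It was high in 2 of 5 controls and in 4 of 5 treated animals (log2 2.92, SE 1.09, adjusted p = 0.731). Cyp2f2, the abundant club cell P450, had 0.07, Scgb1a1 0.05 and Sftpc 0.11. These 3 lie close to the top of the scale, and under the deposited scaling they had 0.44, 0.55 and 0.54, none past the threshold. Medians were 0.13 for 22 macrophage genes and 0.04 for 12 neutrophil genes, and among macrophage genes Ctsk, a cathepsin, had 0.98 (SE 0.30, adjusted p = 0.467) with no overlap.

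Neither antioxidant genes nor the other P450s held a call. The 27 tested genes of the NRF2 and glutathione list split into 14 positive and 13 negative with a median of 0.03, and the list of P450s and their reductase had a median of 0.03 over 16. Gsta2, a glutathione transferase, had 0.14 (adjusted p = 0.978), and the ethanol-inducible P450 Cyp2e1 had 0.26 (SE 0.52, adjusted p = 0.986). In the list of amine, hydrazine and vitamin B6 enzymes the median over 18 was 0.06. Nat2, an N-acetyltransferase, had -0.11 (SE 0.20, adjusted p = 0.986). Kmo, a kynurenine hydroxylase, had -0.76 (adjusted p = 0.658), Ddc, a decarboxylase that uses vitamin B6, -0.48 (adjusted p = 0.768) and Cth, a lyase that also uses it, 0.49 (adjusted p = 0.447).

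Growth and stress lists held no call either. Of 35 tested cell cycle genes, 25 had positive log2 fold changes with a median of 0.10. At an unadjusted p under 0.05, 6 were higher (3.5% of all genes were) and none was lower. The proliferation marker Mki67 was at 5.62, 6.08, 6.15, 5.4 and 5.47 in controls and at 5.92, 6.83, 6.16, 6.44 and 6.4 with isoniazid (log2 0.60, SE 0.26, adjusted p = 0.768). Nusap1, a spindle protein, had 0.59, Rrm2, a ribonucleotide reductase subunit, 0.45 and Top2a, a topoisomerase of dividing cells, 0.15. Medians were 0.03 for growth factors and receptors of lung epithelium and 0.003 for p53 targets, and 0.03 for unfolded protein and ATF4 genes, where the serine synthesis genes Phgdh and Psat1 had 0.50 and 0.51 (adjusted p = 0.642 and 0.731). Heat shock proteins were negative in 12 of 13 (median -0.12). At 7 days the cell cycle list had 20 genes positive and 15 negative (median 0.035), and Mki67 had -0.10. Of that list, 3 were higher at 7 days at an unadjusted p under 0.05 (3.82% of all genes were).

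Among the remaining lists no gene passed. Medians were 0.13 for cholesterol synthesis (14 of 18 positive), 0.19 for fatty acid synthesis, 0.09 for fatty acid oxidation and PPAR alpha targets, 0.12 for the interferon response (18 of 21 positive), 0.09 for inflammatory cytokines and acute phase, -0.004 for extracellular matrix and 0.07 for hypoxia and glycolysis. In the hypoxia and glycolysis list, Adm, the vasodilator adrenomedullin, had -0.98 (SE 0.28, adjusted p = 0.382). At 7 days the interferon list had 16 genes negative and 5 positive (median -0.13), and the cholesterol list 12 negative and 6 positive (median -0.06). Lists with 5 or fewer tested genes had medians of 0.01 (mast cell and eosinophil), -0.11 (red blood cell), 0.29 (skeletal muscle), -0.19 (thymus) and 0.37 (the single cold-inducible gene).

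**Figure D4:**
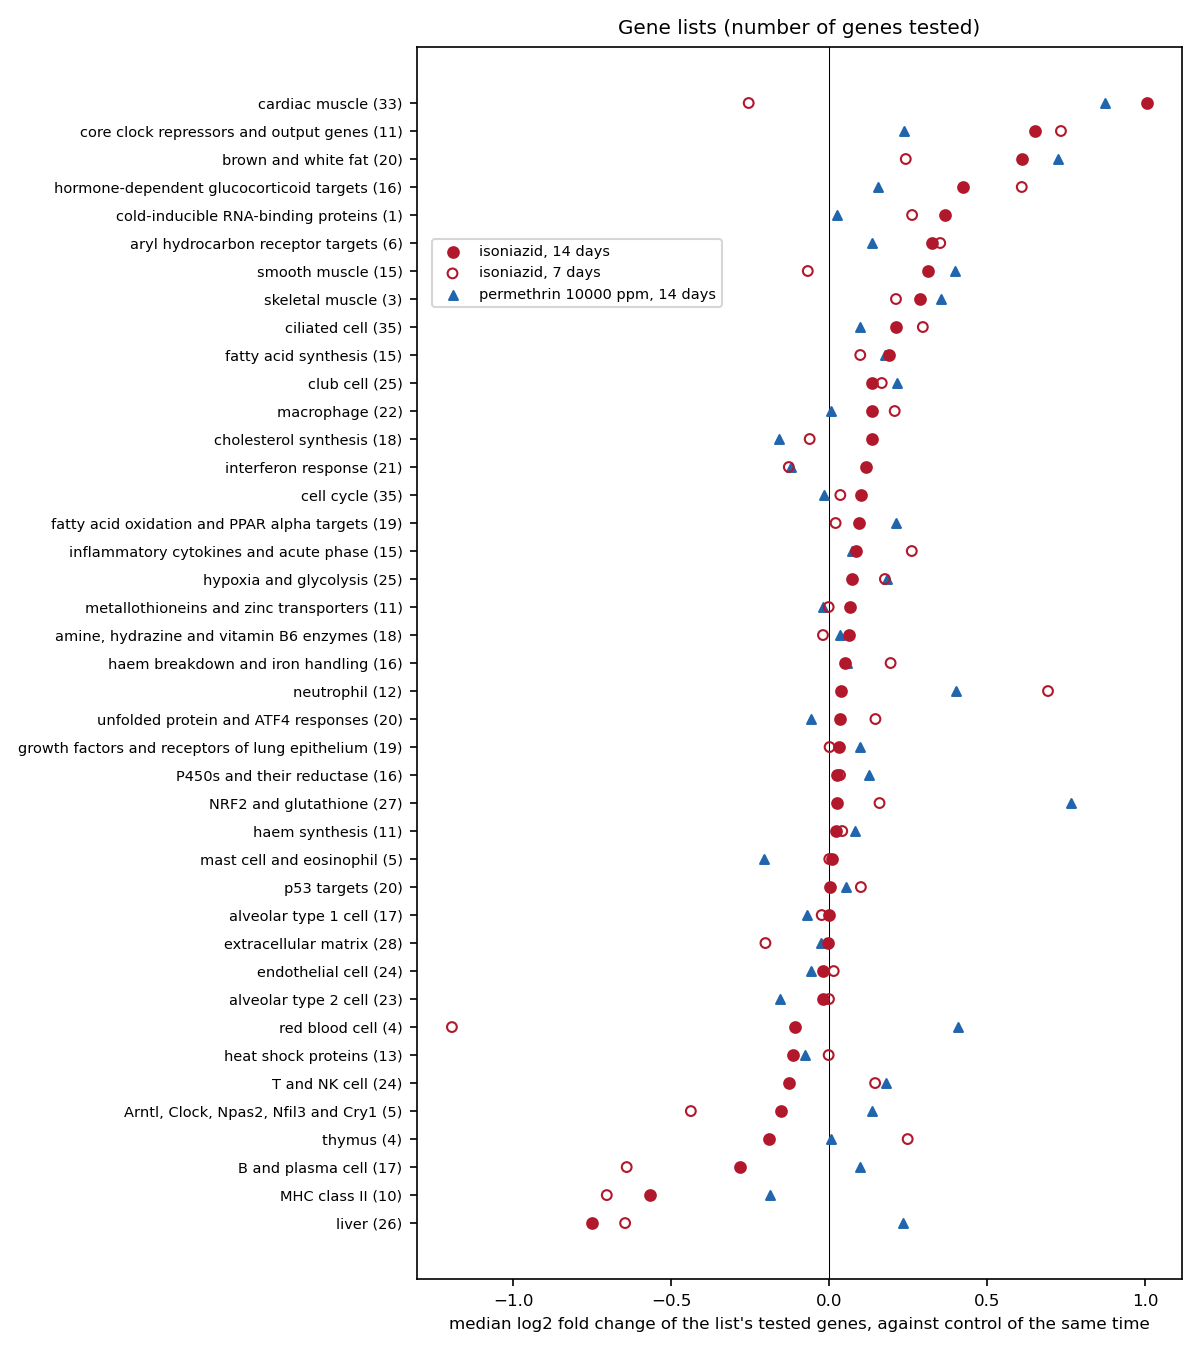
Median log2 fold change (horizontal axis) of the tested genes of each of 41 lists against the control of the same time, with the number of genes tested in brackets. The clock list of Arntl is labelled with its genes. Filled circles are isoniazid at 14 days, open circles isoniazid at 7 days, and triangles permethrin 10000 ppm at 14 days, which shares its controls with the filled circles. Cardiac muscle is highest at 14 days at 1.01 and -0.26 at 7 days, while liver is lowest at -0.75 and -0.65.

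Whether the response differed between 7 and 14 days was tested on other animals at each time. At 7 days 6 genes passed (0.0461% of all tested), Cyp1a1, Alas1, Mt1, Selenbp1, Ppp1r3c and Scn3b. Cyp1a1 was at 6.25, 5.64, 5.85, 5.07 and 7.18 in the 7-day controls and at 8.65, 8.23, 7.55, 8.67 and 7.68 with isoniazid, with no overlap. Its log2 fold change was 2.16 (SE 0.37, adjusted p = 0.00778) at 7 days. Alas1 was at 9.48 to 10.16 in 7-day controls and at 10.61 to 11.16 with isoniazid (log2 0.99, SE 0.13, adjusted p = 0.000103).

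The change of the isoniazid effect from 7 to 14 days itself passed the threshold for 0 of 13021 genes (0%) with limma, and 384 (2.95%) had an unadjusted p under 0.05. Among the 5 genes of smallest p for this change were Bbc3, Ccdc92 and D430019H16Rik (unadjusted p = 0.000518, 0.000992 and 0.000315). Bbc3, of the p53 list, had 0.44 at 7 days and -0.38 at 14. Ccdc92 had 0.38 and -0.35, and D430019H16Rik -0.56 and 0.22. For Cyp1a1 the effect was 0.92 larger at 14 days (SE 0.52, unadjusted p = 0.089, adjusted p = 1). For Alas1 it was -0.31 (SE 0.19, unadjusted p = 0.104) and for Itgae -0.57 (SE 0.35, unadjusted p = 0.11). Itgae at 7 days was at 5.17 to 5.61 with isoniazid and at 5.82 to 6.66 in controls, so all treated animals were again lower (log2 -0.85, SE 0.25, adjusted p = 0.339). Ces1f had -0.38 at 7 days (SE 0.24, adjusted p = 0.864), where groups overlapped, and a change of -0.98 (SE 0.34, unadjusted p = 0.00683, adjusted p = 1).

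The other genes called at 7 days had values closer to 0 at 14. Mt1 had 1.01 at 7 days and 0.64 at 14, and Selenbp1, a selenium-binding protein, 0.46 (SE 0.08, adjusted p = 0.00965) and 0.25 (SE 0.08, adjusted p = 0.622). Ppp1r3c, which targets a phosphatase to glycogen, had -0.88 and -0.25, and Scn3b, a sodium channel subunit, -0.75 and -0.12. These differences between times did not pass. The clock repressor and output list had medians of 0.73 at 7 days and 0.65 at 14, and the class II list -0.70 and -0.57, in animals and controls that the times do not share. At 7 days 9 of the 11 clock repressors and outputs were higher at an unadjusted p under 0.05 (3.82% of all genes), and 3 of the 10 class II genes were lower (2.7%).

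Isoniazid and permethrin were compared directly at 14 days, with the mean of both permethrin doses. Here 33 genes passed (0.253% of all tested), 5 higher with isoniazid (0.0384%) and 28 lower (0.215%). Higher were Cyp1a1 (log2 4.39, SE 0.33, adjusted p = 1.78e-11), Alas1 (0.59), the transcription factor Hey1 (0.61), the sterol enzyme Hsd17b7 (0.57) and the fatty acid binding protein Fabp5 (0.47). The largest negative differences were those of the carboxylesterases Ces1g (-2.99) and Ces1f (-2.44), Gsta2 (-1.78), Aldh3a1 (-1.59) and Gpx2, a glutathione peroxidase (-1.57). Itgae, 1.14 lower with isoniazid (SE 0.22, adjusted p = 0.00455), was also among the lower genes.

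Set against the control animals, which both treatments share, these genes differed in where the difference lay. Cyp1a1 had 3.07 with isoniazid and -0.57 and -2.06 with permethrin at 5000 and 10000 ppm. Permethrin animals at 10000 ppm were at 2.89, 3.93, 1.97 and 3.97, below all controls. Signals there are dim, around the filter limit of 3.43, so the sizes of -2.06 and of the 4.39 between isoniazid and permethrin are not exact. Ces1f had -1.36 with isoniazid and 1.0 and 1.17 with permethrin, while Itgae had -1.42, -0.23 and -0.32. Gsta2 had 0.14 with isoniazid and 1.62 and 2.21 with permethrin, and Gpx2 had -0.16, 1.31 and 1.5.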

How the data were processed

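Total RNA from the lungs of 39 mice was labelled with biotin (100 ng input, an Affymetrix kit for 3' transcription) and hybridized to Affymetrix mouse arrays, per the labels' protocols. The authors deposited 1 signal intensity per probe set and array on a linear scale. The submitters' processing notes name MAS5, with a version not given in the sources used here. The trimmed mean of each array is 100.0 with 2% left out at each end. Background subtraction and probe summary were the authors' and could not be varied.

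Array medians differed by 1.51 times over the series (17.9 to 26.2 in the 10 arrays), so values were put on the log2 scale without a pseudocount and quantile normalized. This removes changes shared by most genes and compresses the brightest probe sets. Of 45101 probe sets, 34958 carry 1 gene symbol, 932 several and 9211 none (64 controls included) in GEO's platform annotation. Each gene is its probe set of highest mean, kept in the upper 60% of mean signal (log2 of at least 3.43), which left 13021 of 18194 genes. A model of 8 group means was fitted to all 39 arrays with limma 3.58.1 in R 4.3.3 (empirical Bayes with trend, two-sided, Benjamini-Hochberg over all genes, adjusted p under 0.05). Data handling used the package data.table, version 1.17.8, and figures matplotlib 3.10.9. The calling step was tested on simulated data. Errors are standard errors of the model.

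The members and the 41 gene lists (858 entries, 705 tested) were chosen with earlier results of these data known. Named are genes past the threshold with treated animals on 1 side of the control mean, the 15 of next smallest p, up to 5 each way or by p in the other comparisons, up to 3 members of each list, and 16 fixed genes (Cyp1a1, Alas1, Mt1, Mt2, Selenbp1, Hmox1, Nqo1, Gsta2, Aldh3a1, Cyp2e1, Cyp2f2, Scgb1a1, Sftpc, Mki67, Top2a and Nat2). Ager, Tiparp, Clock, Nfil3, Ppp1r3c and Scn3b were named after their values were seen. Alternatives were other scalings, a pseudocount of 4, no filter or the upper 40%, every probe set, only the compared groups, a replicate block, array weights, the Gapdh ratio as covariate or limit, liver and cardiac means as covariates, and leaving out each animal.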

Additional observations from a re-analysis of the deposited data

Results flagged for a closer look

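In 154 sets of 5 values checked, 11 held 1 animal far from the rest by Dixon's criterion, which chance gives in about 5% of such sets. Among the 14-day controls, replicate 2 was low for Itgae at 5.44 (others 6.37 to 6.71) and for the liver list at 4.36 (others 5.26 to 5.52). Control replicate 4 was high for Selenbp1 at 12.01 (others 11.77 to 11.82) and for Kmo at 5.33 (others 4.05 to 4.41), and control replicate 5 was low for the macrophage cathepsin Ctsk at 5.65 (others 6.51 to 6.81).

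Among the isoniazid animals of 14 days, replicate 5 was low for Dtx4 at 6.81 (others 7.42 to 7.59) and high for the rhythmic gene Usp2 at 7.78 (others 6.46 to 6.67). Replicate 2 was low for H2-Ob at 4.47 (others 5.47 to 5.76) and high for Top2a at 6.30 (others 5.78 to 5.89). Replicate 4 held the airway secretoglobin Scgb3a1 at 6.54 (others 11.60 to 12.40). For Scgb1a1, replicate 2 was at 13.13 and the other 4 at 13.18, the ceiling of the scale.

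The cardiac gene Myl3 had every isoniazid animal above the control mean at 14 days and below it at 7 days. Its effect differed between times by 1.96 on the log2 scale, with an unadjusted p of 0.000107 and an adjusted p of 0.7 in limma's test of that difference.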

How the results depend on the processing

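The count of 4 genes became 1 with only the compared groups in the model (Cyp1a1), 2 with array weights and 2 without the arrays of high Gapdh ratio (Ces1f and Cyp1a1 in both), and 7 with the replicate block, which added Hepacam2, Serpina1c and Spon2. Leaving out 1 animal gave 1 to 6, with 1 (Cyp1a1) without control replicate 4 or isoniazid replicate 3 and 6 without control replicate 3. Other alternatives gave 3 to 6. With no filter the cytokine receptor gene Flt3, chosen after its values were seen, also passed. The cause of these changes was not tested. Replicate numbers do not pair the animals: correlations of same-numbered deviations were 0.034, 0.027, -0.075, -0.336 and 0.214, and 1 of 5 numbers matched itself best. The change from 7 to 14 days gave 0 to 1 genes on leaving out 1 animal (Has1, without isoniazid replicate 2 of 14 days). The isoniazid and permethrin comparison gave 20 genes with array medians and 13 with only the compared groups, against 33.

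Of 70 genes, 63 kept their sign in all alternatives. Without the arrays of high Gapdh ratio the log2 fold change was 0.028 for Nat2, 0.026 for Cd22 and 0.025 for Fcrla. With liver and cardiac covariates it was -0.105 for Nqo1 and -0.166 for Cyp2e1, which is itself a member of the liver list. Leaving out 1 animal gave -0.101 to 0.739 for Cyp2e1, -0.124 to 0.016 for Hmox1, -0.232 to 0.084 for Nat2 and -0.124 to 0.299 for Gsta2. Over the alternatives, list medians ran from 0.35 to 0.73 for clock repressors and outputs and from -0.68 to -0.40 for class II. Liver ran from -0.98 to -0.01 and cardiac muscle from 0.10 to 1.24. These ranges include the fit with the liver and cardiac means. That fit draws the medians of the liver and cardiac lists themselves toward no difference by construction. Probe sets near the filter limit are dim, and how far they lie above background was not measured here.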
